A study of Mus musculus with 50 samples.

Results

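The 10 genes described here set the calcium cycle of a muscle fibre: the calcium pumps Atp2a1 and Atp2a2, their peptide inhibitors Sln and Pln, the voltage sensor subunit Cacna1s and its adaptor Stac3, the release channel Ryr1, and the calcium buffers Casq1, Casq2 and Pvalb. They were picked by symbol from the 23880 genes of the deposited tables, and all 10 were among the 12586 genes kept for testing, with 1 CPM (counts scaled to a fixed library size) or more in 8 or more mice. The samples were gastrocnemius muscles, a fast calf muscle, of 50 wild type male C57BL/6JRj mice, an inbred strain, 8 for each age of 8, 18, 22 and 24 months and 9 for each age of 26 and 28 months. All mice were housed singly and ate the purified AIN-93M diet, which the mice of 8 and 18 months received for at least 2 months before the muscles were taken, and the mice of 22 to 28 months from shortly after 18 months of age onwards. The 50 mice include none that looked ill or showed tumours when the muscles were taken. Each mouse gave 1 stranded mRNA library with 13607229 to 21267375 assigned counts (median 1.65e+07).

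Contraction starts when Cacna1s senses the depolarised membrane and opens Ryr1, which lets calcium out of the sarcoplasmic reticulum, where calsequestrin (Casq1 in skeletal muscle, with Casq2 also present in slow fibres, and Casq2 in the heart) holds it. Relaxation follows when the SERCA pumps return calcium to the reticulum, SERCA1 (Atp2a1) in fast and SERCA2 (Atp2a2) in slow fibres, while parvalbumin (Pvalb) binds calcium in the cytosol of fast fibres. Sarcolipin (Sln) and phospholamban (Pln) are small membrane peptides that bind the pump and slow calcium uptake, and sarcolipin in addition lets the pump spend ATP without moving calcium. In rodents sarcolipin is known as a peptide of the atria of the heart that is scarce in adult fast limb muscle.

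The genes were chosen with results of the 28 against 8 months comparison in view, above all the increase of Sln, so the 28 against 8 months values of the 10 genes are given below as a description and without a test. The 10 genes were tested between mice that this comparison did not contrast, although all 6 ages shared one estimate of the spread: 26 against 18 months, and 26 against 22 months, where the diet followed the same schedule at both ages. Levels are given in TPM, transcript abundances scaled by length and to a fixed total, which can be compared between genes, and fold changes come from edgeR on the counts. In 28 against 8 months 6 of the 10 genes lay past a false discovery rate (FDR) of 0.01, 3 higher and 3 lower, where 39.6% of all genes tested did. The choice of genes fixed this count, which is a description only. In 26 against 18 months 1 of the 10 passed, beside 10.1% of all genes, and in 26 against 22 months 1 of the 10, beside 2.65% (1.67% higher and 0.985% lower). That gene was Sln in both. Without single mice the number of all genes past the threshold ranged from 486 to 1527 in 26 against 18 months (1268 with all mice). In 26 against 22 months it ranged from 42 to 601 (334 with all mice). In 18 against 8 months, which shares its younger mice with the comparison behind the choice, none of the 10 passed by edgeR, the one tool run there. Of all genes 0.0715% passed there (0.0397% higher and 0.0318% lower). None of the 10 had an unadjusted edgeR p below 0.05 in 18 against 8 months, beside 460 of the 12586 genes tested. The median log2 fold change of all genes tested was 0.01 in 28 against 8 months and 0.00 in 26 against 18 months.

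One library of 28 months, replicate 2, stood apart from the other 8 of its age. Its Casq1 level was 504 TPM, its Pvalb level 5223 TPM and its Stac3 level 167 TPM, each the lowest of the 50 mice. The fast fibre marker genes summed to 109723 TPM in this mouse and to 145979 or more in the other 8, and it also had the highest sums of macrophage markers (229 TPM), adipocyte markers (701 TPM) and endothelial markers (165 TPM) of its age. Its sums of skeletal muscle (66556 TPM), Schwann cell, erythroid and smooth muscle markers were the lowest of its age. Its heart marker sum was the highest, and its denervation marker sum (745 TPM) was the second highest. The part of these markers in the low values was not tested. In bulk muscle, fewer fibres of a type and less RNA per fibre cannot be told apart, here and for every gene below. Fold changes of 28 against 8 months are therefore also given without this mouse where they rest on it.

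Sln rose with age from one of the least abundant of the 10 genes to a mean above that of Casq2. At 8 months its level ranged from 1.20 to 7.58 TPM with a median of 3.0, and at 18 months from 3.46 to 9.85 TPM with a median of 5.93. At 22 months the mice spread from 5.58 to 30.4 TPM around a median of 11.04, and at 24 months from 9.59 to 59.8 TPM around a median of 10.7. In these 2 groups 1 mouse, replicate 1 of 24 months, reached the range of 28 months, and it lay far above the other 7, whose highest value was 24.9 TPM. At 26 months the lowest, median and highest values were 14.1, 40.3 and 81.9 TPM, and at 28 months 54.3, 74.1 and 121 TPM. Every mouse of 26 and of 28 months lay above every mouse of 18 months, while the ranges of 26 and 28 months overlapped. Even the lowest mouse, at 8 months, had 16 counts of Sln, and the highest, at 28 months, had 1320.

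**Figure D1:**
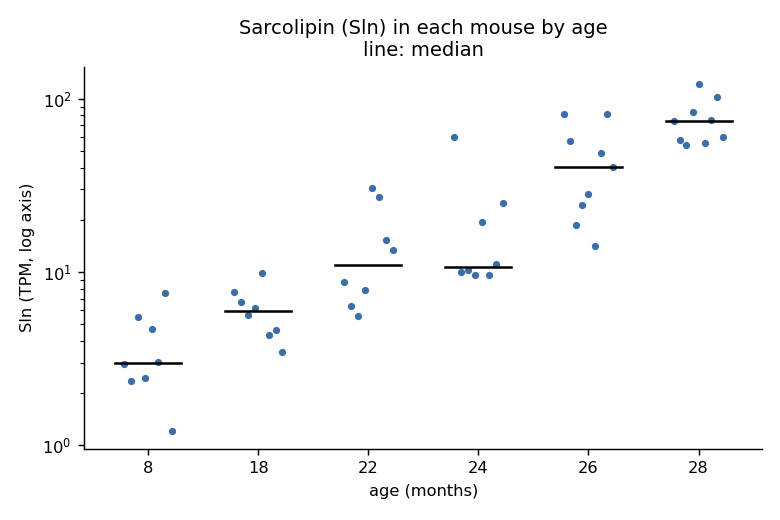
Sln level in each mouse (points) at 6 ages, in TPM on a log axis, with the median of each age as a line. The medians go from 3.0 TPM at 8 months to 74.1 TPM at 28 months, and the 9 mice of 26 months all lie above the 8 mice of 18 months.

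Between 18 and 26 months Sln was 7.27-fold higher, a log2 fold change of 2.86 (SE 0.40) with an edgeR FDR of 1.53e-05, and 9 of 9 mice of 26 months were above all 8 mice of 18 months. Between 22 and 26 months, on the same diet schedule, it was 3.09-fold higher, a log2 fold change of 1.63 (SE 0.37) with an edgeR FDR of 0.00522, and 9 of 9 mice were above the median of 22 months but only 5 above its highest mouse. This second call was close to the threshold. It was lost when any one of 7 mice was left out (replicates 2, 3, 4, 7 and 8 of 22 months, replicates 1 and 8 of 26 months), with log2 fold changes of 1.45 to 1.63 in these 7 fits and an FDR of at most 0.0199, and in a fit of the 2 ages alone (FDR 0.0145). From 8 to 28 months the level differed by a log2 fold change of 4.25 (SE 0.43), or 19.1-fold, and by 4.31 without replicate 2 of 28 months.

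No single step between neighbouring ages passed the threshold for Sln. Its log2 fold change was 1.23 (SE 0.41, FDR 0.999) from 18 to 22 months, 0.44 (SE 0.38, FDR 0.9998) from 22 to 24 months and 1.19 (SE 0.37, FDR 0.0894) from 24 to 26 months, all by edgeR. None of the 10 genes passed in any of these 3 steps, in edgeR, DESeq2 or limma, while at an unadjusted p below 0.05 edgeR had 1 of the 10 in the first step (Sln), 1 in the second (Pln) and 3 in the third (Sln, Pln and Atp2a1). Of all genes, 0.00795% passed in the first of these steps and 0% in the other two, and 522, 478 and 2202 genes had an unadjusted p below 0.05. The difference of Sln between 26 and 18 months was therefore not placed in one of the steps.

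Phospholamban, the other inhibitor of the group, gave no such difference. Pln ranged from 1.64 to 17.2 TPM over the 50 mice, with means of 3.83 ± 1.16 TPM at 8 months (SD, n = 8) and 3.99 ± 1.62 TPM at 28 months (SD, n = 9). The highest mean was that of 24 months, 7.79 ± 4.57 TPM (SD, n = 8), where 1 mouse, replicate 2, reached 17.2 TPM. The step down from 24 to 26 months, a log2 fold change of -0.81 (SE 0.26), missed the threshold with an edgeR FDR of 0.0971, and the difference between 26 and 18 months was 0.10 (SE 0.26, FDR 0.805). Per length, Sln was above Pln in 3 of 8 mice of 8 months, in 6 of 8 of 18 and of 22 months, in 7 of 8 of 24 months and in all 9 mice of both 26 and 28 months. The ratio of Sln to Pln in TPM had a median of 0.754 at 8 months and of 22.5 at 28 months.

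Another pump inhibitor of skeletal muscle, myoregulin (Mrln), was far more abundant than either, with a mean of 227 TPM over the 50 mice, and was not one of the 10. It was lower by 0.86 on the log2 scale at 28 than at 8 months (SE 0.15), given as a description, and by 0.45 at 26 than at 18 months (SE 0.15), where it did not pass (FDR 0.0237). Sln amounted to a mean of 0.0139 TPM per TPM of Mrln at 8 months and 0.523 at 28 months, and with a highest ratio of 0.978 Mrln was the more abundant of the pair in every mouse. The gene of the peptide DWORF was not analysed here.

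Atp2a1 had the highest mean TPM of the 10 genes at every age, with a range that overlapped that of Pvalb at 8 and 18 months. It ranged from 17990 to 21674 TPM with a median of 19613 at 18 months, and from 19418 to 30343 TPM with a median of 24628 at 26 months, where 6 of 9 mice were above all mice of 18 months in CPM and the ranges overlapped. The log2 fold change of 0.31 (SE 0.10) missed the threshold with an edgeR FDR of 0.0213, and passed, at 0.00929, only where replicate 7 of 26 months was left out. From 22 to 26 months it was 0.27 (SE 0.10, FDR 0.0582), and from 8 to 28 months 0.34 (SE 0.10). Set against its target in TPM, Sln went from a median of 0.153 TPM per 1000 TPM of Atp2a1 at 8 months to 0.284 at 18, 1.48 at 26 and 2.83 at 28 months.

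The slow-fibre pump gene Atp2a2 had large differences between mice of one age. Its level ranged from 49.0 to 235 TPM at 18 months (median 121), from 77.9 to 342 TPM at 26 months (median 180), and from 106 to 455 TPM at 28 months (median 212), so that all ages overlapped. Its log2 fold change was 0.61 (SE 0.29, FDR 0.115) in 26 against 18 months and 0.33 (SE 0.29, FDR 0.460) in 26 against 22 months. It made up 0.657% of the pump TPM (Atp2a1 plus Atp2a2) at 18 months, 0.766% at 22 months, 1.07% at 24 months and 0.832% at 26 months. The mean of 26 months was 0.175 and 0.0657 percentage points above those of 18 and 22 months, differences that did not pass in a two-sided exact permutation test (adjusted p = 0.483 and 0.728 over 4 share tests).

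At the triad, where the voltage sensor meets the release channel, none of the 3 genes passed in 26 against 18 or 26 against 22 months. Of all genes 10.1% and 2.65% passed there. Cacna1s, the pore and voltage sensor of the calcium channel of the transverse tubule, stayed between 365 and 587 TPM in all 50 mice, with log2 fold changes of 0.15 (SE 0.09, FDR 0.222) in 26 against 18 months and 0.10 (SE 0.09) in 28 against 8 months. Ryr1 ranged from 248 to 1048 TPM, with means of 664 ± 172 TPM at 18 months (SD, n = 8) and 822 ± 93.7 TPM at 26 months (SD, n = 9), a log2 fold change of 0.33 (SE 0.15) that did not pass (FDR 0.0937).

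Stac3, which couples the voltage sensor to the release channel, had its lower levels in the oldest mice. It ranged from 328 to 373 TPM with a median of 350 at 18 months, from 199 to 362 TPM with a median of 293 at 26 months, and from 167 to 320 TPM with a median of 242 at 28 months. At 26 months 5 of 9 mice were below all mice of 18 months in CPM, and the ranges overlapped. The log2 fold changes of -0.27 (SE 0.10) in 26 against 18 months and -0.27 (SE 0.10) in 26 against 22 months did not pass (FDR 0.0514 and 0.0661), and that of 28 against 8 months was -0.54 (SE 0.10), or -0.47 without replicate 2 of 28 months.

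Casq1, the main calsequestrin of fast fibres, had the lower levels of the older mice and also their wider spread. At 8 months it ranged from 2873 to 3422 TPM (median 3257) and at 18 months from 2530 to 3445 TPM (median 2892). At 26 months it ranged from 1099 to 2975 TPM (median 2380) and at 28 months from 504 to 2933 TPM (median 1584). In CPM no mouse of 28 months reached the lowest mouse of 8 months, whereas 6 of 9 mice of 26 months were below all mice of 18 months and 1 was above their median. The SD of log2 CPM between mice was 0.11 at 8 months, 0.23 at 18 months, 0.48 at 26 months and 0.84 at 28 months, where it was 0.49 without replicate 2, left out after its values were seen. The log2 fold change was -0.50 in 26 against 18 months (SE 0.19, FDR 0.0443) and -0.51 in 26 against 22 months (SE 0.19, FDR 0.0613), neither past the threshold. Both passed in a fit of the 4 ages from 18 to 26 months (FDR 0.00655 and 0.00912), in which the mice of 8 and 28 months no longer entered the estimate of the spread. In 28 against 8 months it was -0.86 (SE 0.19), and -0.74 without replicate 2 of 28 months.

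Casq2, the calsequestrin of the heart that slow fibres also hold, was far below Casq1 in level, with means of 51.2 TPM at 24, 42.7 TPM at 26 and 54.4 TPM at 28 months against 28.6 TPM at 8 months. It ranged from 14.9 to 49.5 TPM at 18 months (median 28.4), from 26.6 to 65.4 TPM at 26 months (median 40.5) and from 36.5 to 91.6 TPM at 28 months (median 55.4). At 26 months 8 of 9 mice were above the median of 18 months in CPM, while 4 of 9 were below all mice of 24 months. The log2 fold change was 0.50 (SE 0.21, FDR 0.0658) in 26 against 18 months, 0.18 (SE 0.20, FDR 0.577) in 26 against 22 months and 0.86 (SE 0.21) in 28 against 8 months.

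Casq2 made up a larger share of the calsequestrin RNA in the mice of 26 months, though the ranges of the ages overlapped. The share also depends on Casq1. In 26 against 22 months the log2 fold changes were 0.18 for Casq2 and -0.51 for Casq1. In 26 against 18 months they were 0.50 and -0.50, and none of these passed FDR 0.01 by edgeR. The share was 1.05% ± 0.454 of the calsequestrin TPM at 18 months (SD, n = 8), 1.29% ± 0.432 at 22 months (SD, n = 8) and 2.16% ± 0.826 at 26 months (SD, n = 9). The difference of 1.11 percentage points between 26 and 18 months passed a two-sided exact permutation test (p = 0.00514, adjusted p = 0.0206 over 4 share tests), with 8 of 9 mice of 26 months above the mean of 18 months. That of 0.861 between 26 and 22 months also passed (exact p = 0.0181, adjusted p = 0.0362), with 7 of 9 mice above, but it missed 0.05 on a log2 ratio scale and without any one of 10 mice (replicates 3, 6, 7 and 8 of 22 months, replicates 1, 3, 4, 5, 6 and 8 of 26 months; adjusted p up to 0.0771). At 28 months the share had a median of 2.48% and reached 11.5% in replicate 2. The 7 marker genes of slow fibres had mean sums of 1663, 1351, 1795, 2708, 2217 and 2520 TPM from 8 to 28 months, with the highest at 24 months. They were led by Myl2, the slow regulatory light chain, at 355 TPM at 18 and 604 TPM at 26 months. None of the 7 passed FDR 0.01 in 26 against 18 or 26 against 22 months by edgeR, DESeq2 or limma. Of all genes 10.1% and 2.65% passed there by edgeR. At an unadjusted edgeR p below 0.05 there were 3 and 0 of the 7, beside 4910 and 3865 of the 12586 genes tested. All 7 had a positive log2 fold change in both comparisons. Their part in the share was not tested.

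**Figure D2:**
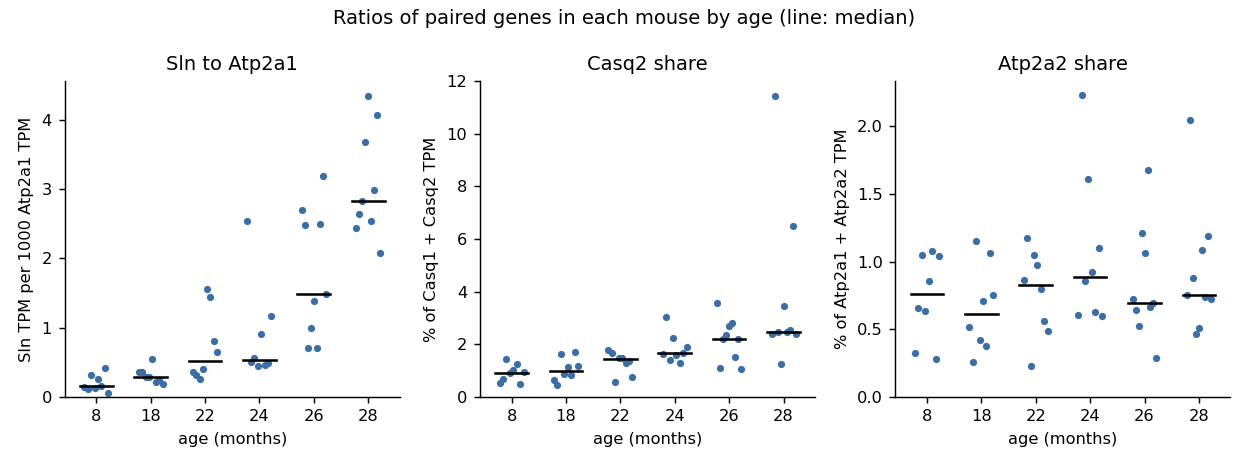
Sln TPM per 1000 TPM of Atp2a1, Casq2 as a percentage of the calsequestrin TPM, and Atp2a2 as a percentage of the pump TPM in each mouse (points) by age, with medians as lines. The median Casq2 share goes from 0.923% at 8 months to 2.48% at 28 months with 1 mouse at 11.5%, while the Atp2a2 share has medians between 0.615% and 0.887% at all 6 ages.

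The sequences ahead of the 2 calsequestrin genes are shown because the log2 fold changes of this pair had opposite signs. They are the 250 bases before the RefSeq start site on GRCm38.p6, with E-box letters (CANNTG, bound by muscle factors such as MyoD) and the MEF2 motif in capitals, and a RefSeq promoter was found for 7 of the 10 genes (for none of Sln, Atp2a2 and Stac3).
Casq1, chr1:172219896-172220145, minus strand: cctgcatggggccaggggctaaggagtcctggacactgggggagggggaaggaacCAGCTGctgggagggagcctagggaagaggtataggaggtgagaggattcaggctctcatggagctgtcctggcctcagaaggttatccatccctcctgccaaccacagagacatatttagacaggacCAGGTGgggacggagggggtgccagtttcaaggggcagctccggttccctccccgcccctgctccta
Casq2, chr3:102086165-102086414, plus strand: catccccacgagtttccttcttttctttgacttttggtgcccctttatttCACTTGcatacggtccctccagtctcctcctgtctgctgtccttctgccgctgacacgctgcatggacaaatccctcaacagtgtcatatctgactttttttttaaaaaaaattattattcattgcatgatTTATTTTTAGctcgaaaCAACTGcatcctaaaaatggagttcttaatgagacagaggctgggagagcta
Casq1 had E-box letters 195 (CAGCTG) and 67 (CAGGTG) bases before the start, counted to the first base of the match. Casq2 had them at 200 (CACTTG) and 52 (CAACTG) bases, and a MEF2 match 69 bases before the start. Searched on both strands, CANNTG stood in 66.2% of 32851 mouse promoters of this length, CAGCTG, which is one form of CANNTG, in 13.0%, and the MEF2 motif in 2.92%, so that an E-box here is no mark of these genes. A match says only that these letters are in the window.

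Parvalbumin, the cytosolic buffer of fast fibres, lay below Atp2a1 in the older mice. Pvalb ranged from 14919 to 20781 TPM at 8 months (median 18454), from 10120 to 17641 TPM at 26 months (median 13407) and from 5223 to 15335 TPM at 28 months (median 12451). Per length, Atp2a1 was above Pvalb in 4 of 8 mice of 8 months, in 7 of 8 of 18 months and in all older mice. The difference of Pvalb between 26 and 18 months was -0.26 on the log2 scale (SE 0.16, FDR 0.217) and between 26 and 22 months -0.20 (SE 0.16, FDR 0.395), both short of the threshold. In 28 against 8 months it was -0.74 (SE 0.16), and -0.64 without replicate 2 of 28 months.

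**Figure D3:**
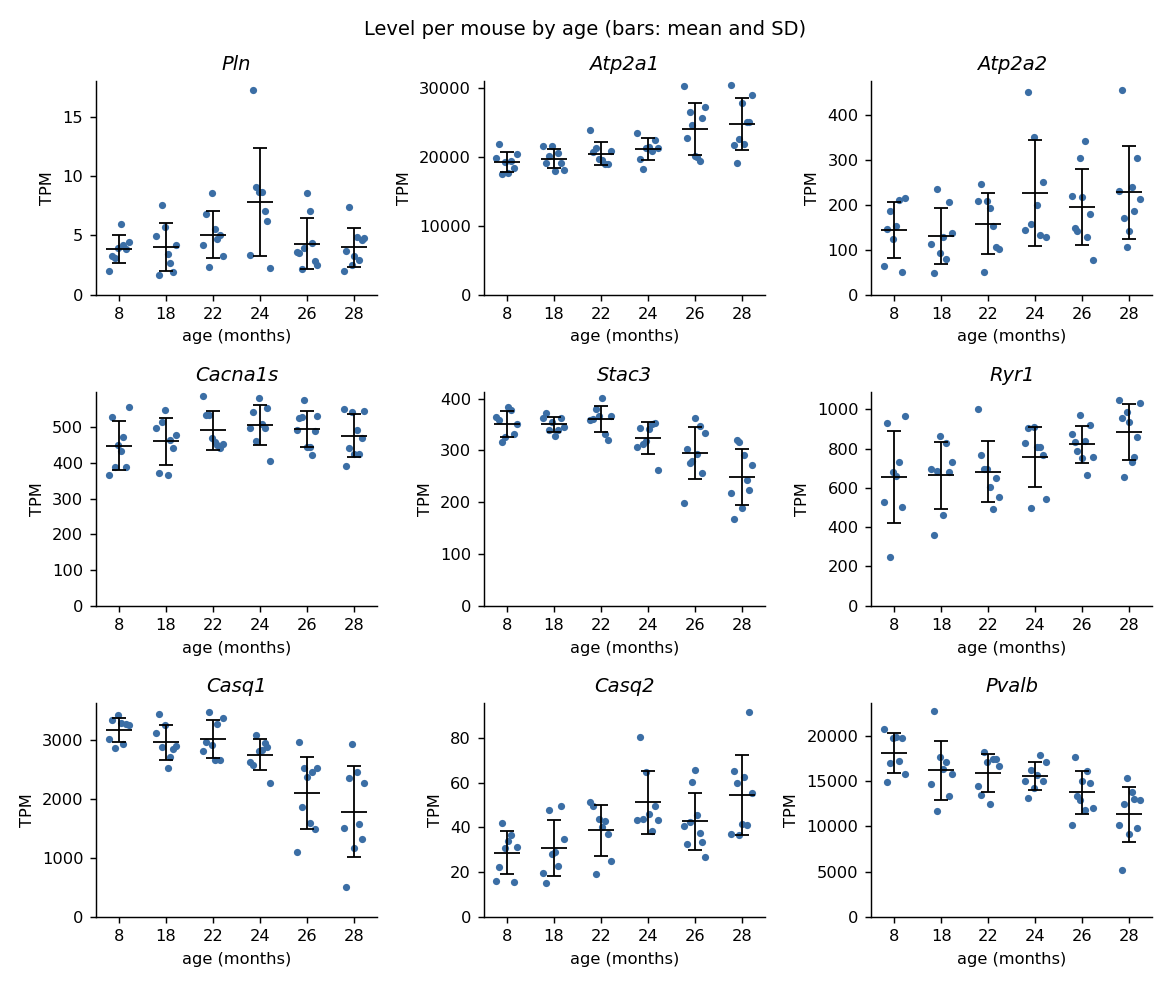
TPM of the 9 genes other than Sln in each mouse (points) by age, with mean and SD. Casq1, Pvalb and Stac3 are lower at 28 than at 8 months, with replicate 2 of 28 months at the bottom of all 3, and Cacna1s lies between 365 and 587 TPM throughout.

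**Figure D4:**
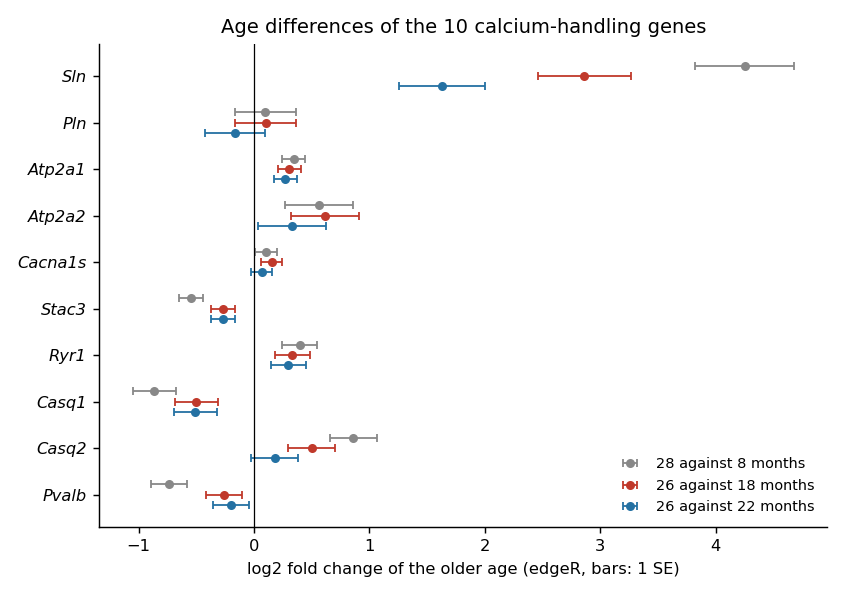
Log2 fold changes with 1 SE for the 10 genes in 3 comparisons, edgeR. Values of 28 against 8 months led to the choice of the genes, and of the other values only those of Sln (2.86 and 1.63) passed FDR 0.01.

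In order of mean TPM at 8 months the genes were Atp2a1, Pvalb, Casq1, Ryr1, Cacna1s, Stac3, Atp2a2, Casq2, Pln and Sln. The ranges of Atp2a1 and Pvalb overlapped there, as did those of Ryr1 and Cacna1s, of Cacna1s and Stac3, and of Pln and Sln. Within mice of that age Ryr1 was above Cacna1s in 7 of 8, Atp2a1 above Pvalb in 4 of 8 and Sln above Pln in 3 of 8. At 28 months the order was the same but for Sln, which stood between Atp2a2 and Casq2 at 75.9 ± 23.2 TPM (SD, n = 9) with ranges overlapping both, and where Casq1 and Ryr1, and Stac3 and Atp2a2, also overlapped. Sln was above Casq2 in no mouse of 8, 18 and 22 months, in 1 of 8 of 24 months, in 5 of 9 of 26 months and in 6 of 9 of 28 months, and in no mouse above Atp2a2. The direction from 18 to 26 months was that from 8 to 28 months for 10 of 10 genes, as it was for 86.8% of all genes tested, in mice that the 2 comparisons do not share.

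The genes varied together in groups, also after the mean of each age had been taken off. Over the 50 mice, the deviations from the age means in log2 CPM of Casq1 and Stac3 had Pearson's r = 0.884 and Spearman's rho = 0.814, and those of Casq1 and Pvalb r = 0.794 and rho = 0.692. Atp2a2 and Casq2, the members of their pairs found in heart and slow fibres, had r = 0.823 and rho = 0.801, and Ryr1 and Cacna1s r = 0.718 and rho = 0.772. With the 2 most extreme mice of the first gene left out, r was 0.834, 0.660, 0.782 and 0.734 in the same order. Sln, Pln and Atp2a1 were in none of these pairs. The r of the deviations of Sln with those of the other 9 genes lay between -0.301 and 0.285. With the age means left in, r of Sln ranged from -0.590 (Stac3) to 0.604 (Atp2a1). These are descriptions, with 45 pairs compared and no test. The mice differed in total counts (13607229 to 21267375) and in the marker sums of their tissue. The part of both in these correlations was not tested.

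The genes whose levels were most like Sln over all 50 mice (log2 CPM) were Chrnb1, a subunit of the acetylcholine receptor of the neuromuscular junction (r = 0.894, rho = 0.862), Anxa11 (r = 0.877, rho = 0.906), Ctxn3 (r = 0.856, rho = 0.870), Inpp5k (r = 0.850, rho = 0.871) and Ptp4a3 (r = 0.841, rho = 0.836). With the age means taken off, the list was another one, with Gpr108 (r = 0.679), Rras (r = 0.678), Npc2 (r = 0.644), Map1lc3a (r = 0.643) and Rps28 (r = 0.642). The closest genes to Atp2a2 were Myh6 (r = 0.962) and Myh7 (r = 0.936), the myosin heavy chains of heart and slow fibres, and to Casq2 Myoz2 (r = 0.900), a partner of calcineurin at the Z-disc, and Nnt (r = 0.888). Atp2a1 went with Actn3 (r = 0.945), the actinin of fast fibres, and Asrgl1 (r = 0.896). Pvalb went with Tpm1 (r = 0.946) and Tmod4 (r = 0.938), both proteins of the thin filament. Casq1 went with Tmem233 (r = 0.975) and Slc37a4 (r = 0.974), and Stac3 with Sh3bgr (r = 0.958) and Pgam2 (r = 0.938), the muscle phosphoglycerate mutase. Ryr1 was most like Herc1 (r = 0.931) and Neb (r = 0.911), both very long transcripts as Ryr1 is. Cacna1s was most like Man2a2 (r = 0.851) and Amotl1 (r = 0.839), and Pln like Apol6 (r = 0.690) and Cyfip2 (r = 0.665).

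Of 82 other genes of muscle calcium handling, 81 were in the tables and 72 were tested. In 28 against 8 months 27 of the 72 passed, 37.5%, beside 39.6% of all genes, 9 of them higher and 18 lower, and the median log2 fold change was -0.05. In 26 against 18 months 4 of 72 passed, 5.56%, beside 10.1% of all genes, 3 higher and 1 lower. In 26 against 22 months none of the 72 passed by edgeR, beside 2.65% of all genes. By DESeq2 2 passed and by limma 1. At an unadjusted edgeR p below 0.05 there were 19 of the 72, beside 3865 of the 12586 genes tested. The count of 26 against 18 months was 13 in the fit of 4 ages, with 5 higher and 8 lower, and 3 with upper-quartile factors, with 1 higher and 2 lower, so that the balance of directions turned. It was 1 in a fit of the 2 ages or without the filter on low counts.

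The 4 calls of 26 against 18 months were modest in size. At the triad, triadin (Trdn), which anchors calsequestrin to the release channel, was higher by 0.37 (SE 0.10, FDR 0.00663), and junctophilin 1 (Jph1), which holds the tubule to the reticulum, by 0.27 (SE 0.07, FDR 0.00670), on the log2 scale. Nfatc1, a transcription factor that calcineurin sends to the nucleus, was higher by 0.36 (SE 0.09, FDR 0.00388), and caveolin 3 (Cav3), a membrane protein of the transverse tubule, lower by 0.38 (SE 0.11, FDR 0.00889). In CPM the mice of 26 months lay at 58.5 to 77.5 for Nfatc1, above all 8 mice of 18 months at 39.1 to 57.8, and the ranges of the other 3 genes overlapped. Leaving out single mice took the count of calls in this list down to 0 (replicate 5 of 18 months or replicate 3 of 26 months) and up to 7 (replicate 2 or 7 of 26 months).

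By role, 28 against 8 months gave 2 of 5 pump regulators (both lower) and 1 of 4 voltage sensor subunits (higher). It gave 8 of 15 release channel and triad genes (2 higher, 6 lower), 3 of 5 transverse tubule genes (2 higher, 1 lower), and 3 of 5 soluble and luminal buffers (all lower). The remaining roles gave 3 of 7 genes of store-operated entry (1 higher, 2 lower), 1 of 5 extrusion genes (higher), 1 of 9 mitochondrial uptake genes (lower) and 5 of 17 calcium-dependent signalling genes (2 higher, 3 lower). Of all genes tested 39.6% passed there, 21% higher and 18.7% lower, and nothing particular to a role is read from these counts. Among the most abundant of their roles, Cacng1, the gamma subunit of the muscle calcium channel, was higher by 0.65 (SE 0.14, FDR 0.000172), and sarcalumenin (Srl), a calcium-binding protein of the reticulum, lower by 0.28 (SE 0.08, FDR 0.00248). Smdt1, the essential small subunit of the mitochondrial uniporter, was lower by 0.34 (SE 0.10, FDR 0.00578). Stim1, the calcium sensor of store-operated entry, and Atp2b1, a calcium pump of the plasma membrane, did not pass, with log2 fold changes of -0.01 (SE 0.07, FDR 0.917) and 0.25 (SE 0.11, FDR 0.0636). None of these 5 genes passed in 26 against 18 months.

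**Figure D5:**
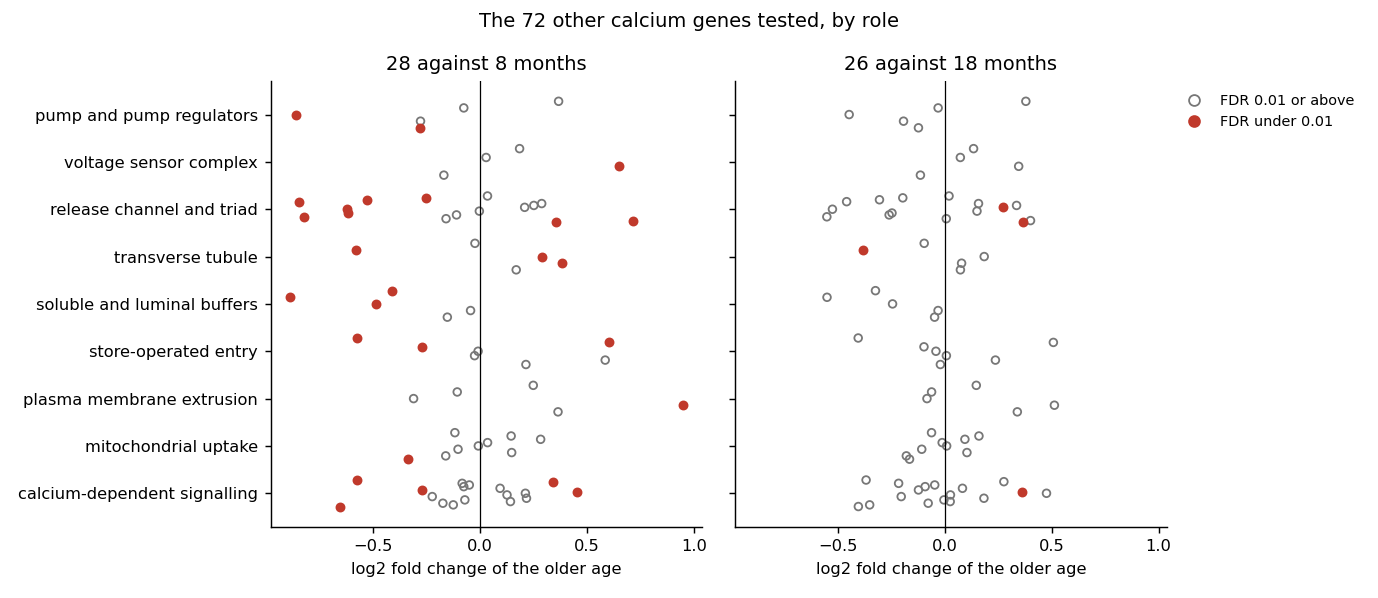
Log2 fold changes of the 72 other calcium genes tested, by role, in 28 against 8 months and in 26 against 18 months; filled points passed FDR 0.01 by edgeR. There are 27 filled points in the panel of 28 against 8 months, 18 of them at negative values, and 4 in the panel of 26 against 18 months.

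Marker genes show what else moved in these muscles. The label of skeletal muscle was checked first: Acta1, the skeletal actin, had a mean of 41416 TPM. Of the 8 genes of that list 4 were higher in 28 against 8 months by edgeR, beside 21% of all genes. In 26 against 18 months 1 was higher, beside 5.39% of all genes, namely Ttn by 0.73 on the log2 scale (FDR 0.00794 by edgeR). DESeq2 also called 1 of the 8 there, and limma called none. Of the heart genes, where sarcolipin is abundant, Myl7, the atrial light chain, had no count in any of the 50 mice, and Nppb and Nppa, the natriuretic peptides, had none in 46 and 43 mice. Tnni3, the cardiac troponin I gene, had none in 10 mice and Tnnt2, cardiac troponin T, none in 2, with at most 7 and 11 counts in a mouse. Myh6 was counted in all 50 mice, with log2 fold changes of 0.87 in 28 against 8 months and 0.81 in 26 against 18 months (FDR 0.0779). The part of reads shared with Myh7 in the Myh6 counts was not tested. The list's most abundant gene was Ryr2, at 10.8 TPM at 8 and 11.4 TPM at 28 months. Of the list's 2 tested genes none passed in 28 against 8 or 26 against 18 months by edgeR, DESeq2 or limma. Of all genes 39.6% and 10.1% passed there by edgeR. At an unadjusted edgeR p below 0.05 the list had 1 gene in each, beside 7329 and 4910 of the 12586 genes tested.

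Genes that respond to a loss of innervation were also higher in old mice. Of the 9 tested, 8 were higher in 28 against 8 months (beside 21% of all genes) and 4 in 26 against 18 months (beside 5.39%), among them Chrna1, the acetylcholine receptor alpha subunit, by 0.78 (FDR 0.000451), Gadd45a by 1.08 (FDR 0.00914) and Runx1 by 0.97 (FDR 0.00733), on the log2 scale by edgeR. By limma 2 of the 9 passed in 26 against 18 months. In 26 against 22 months, where Sln passed, none of the 9 did by edgeR or limma, beside 2.65% of all genes by edgeR. DESeq2 called 2 of the 9 there. At an unadjusted edgeR p below 0.05 there were 5 of the 9, beside 3865 of the 12586 genes tested. The 10 measured genes of the list summed to 201 ± 44.2 TPM at 18 months (SD, n = 8), 292 ± 42.1 TPM at 26 months (SD, n = 9) and 439 ± 197 TPM at 28 months (SD, n = 9). Its most abundant gene, Myh8, the perinatal myosin, was at 102 TPM at 18 and 118 TPM at 26 months and did not pass (FDR 0.308). Chrng, the embryonic receptor subunit, had no count in 11 of 50 mice. The embryonic myosin gene Myh3 was not analysed here, and the part of this list in the difference of Sln was not tested.

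The log2 fold changes of fast fibre genes had both signs. In 28 against 8 months, as a description, they were 0.56 for Actn3, -0.80 for Myl1 and -0.36 for Tnnc2, and the sum of the 7 genes, led by Tnnt3, was 159756 ± 7889 TPM at 8 months (SD, n = 8) and 151217 ± 17543 TPM at 28 months (SD, n = 9). In 26 against 18 months none of the 7 passed by edgeR, DESeq2 or limma, beside 10.1% of all genes by edgeR. At an unadjusted edgeR p below 0.05 there were 2 of the 7, beside 4910 of the 12586 genes tested. Of 6 fibroblast genes 3 fell in 26 against 18 months, beside 4.68% of all genes (the collagens Col1a1, Col1a2 and Col3a1), while the most abundant, Dcn, had 638 and 593 TPM at 18 and 26 months and did not pass. Of 5 adipocyte genes 3 fell (Adipoq, Plin1 and Lep), while the most abundant, Fabp4, had 385 and 361 TPM and did not pass. In 26 against 22 months 2 of the 6 fibroblast genes were lower by edgeR, beside 0.985% of all genes. DESeq2 called 3 of them there and limma 2. None of the 5 adipocyte genes passed there by any of these tools. At an unadjusted edgeR p below 0.05 there were 3 of the 5, beside 3865 of the 12586 genes tested. In 28 against 8 months 4 of the 6 fibroblast and 3 of the 5 adipocyte genes were lower by edgeR, beside 18.7% of all genes. Macrophage genes (led by C1qb), smooth muscle genes (led by Acta2), and endothelial (Pecam1), Schwann cell and erythroid genes (Hbb-bs) had no member past the threshold in 26 against 18 months by edgeR, beside 10.1% of all genes. In 28 against 8 months 3 of 6, 3 of 4, 1 of 5, 1 of 6 and 1 of 5 passed in the same order, where 39.6% of all genes did. At an unadjusted edgeR p below 0.05 these 5 lists had 1, 1, 1, 0 and 1 genes in 26 against 18 months. Of the 12586 genes tested 4910 did. DESeq2 called 1 of the macrophage genes in 26 against 18 months, while limma called none. The part of these lists in the values of the 10 calcium genes was not tested.

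By position on GRCm38 (GENCODE vM21, 1-based), Sln lies on chromosome 9 from 53850164 to 53854560 and Stac3 on chromosome 10 from 127501686 to 127508823, and no other annotated gene overlaps them or Pvalb (chromosome 15, 78191114 to 78206400). Atp2a1 (chromosome 7, 126445858 to 126463108) overlaps Rabep2, and Pln (chromosome 10, 53337667 to 53345987) overlaps Cep85l, each on the opposite strand. Counting used the strand of the reads, so that reads of these neighbours are separated from those of the 2 genes. Casq1 (chromosome 1, 172209894 to 172219868) overlaps the antisense gene Gm17224. Casq2 (chromosome 3, 102086415 to 102146514) holds Gm43244 and 4632404M16Rik in its introns on its own strand, both non-coding. Only protein-coding transcripts were counted.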

How the data were processed

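The authors trimmed the reads with Cutadapt 1.9.1 and assigned them with kallisto 0.43.1, with regard to strand, to protein-coding transcripts of Ensembl on GRCm38, dividing a read that matched several transcripts evenly among them. The deposited counts are sums over the transcripts of a gene, not normalized, and the deposited TPM values are scaled by transcript length and library size. Near-identical paralogs can therefore share counts. Here a single edgeR model (4.0.16, run in R 4.3.3) held all 6 ages. Genes needed 1 CPM or more in 8 mice, library sizes were scaled by TMM, the quasi-likelihood test was applied, and p-values were adjusted over all genes by Benjamini-Hochberg (threshold FDR 0.01). CPM are TMM-normalized. An SE is the log2 fold change divided by the square root of the F statistic. Shares of 2 genes were tested with exact permutation of the mice (24310 arrangements, Python 3.11.15, numpy 2.4.6). The procedure was tested on simulated data.

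The members and gene lists were chosen with earlier results of these data known. Genes outside the 10 were named by rule: in each calcium role the 2 largest changes between 26 and 18 months past FDR 0.01, or else the most abundant gene; the most abundant gene of each marker list and defining markers at 0; and the genes of highest Pearson's r. Some genes that the rule names are not reported here. Mrln, the marker genes called and the fast fibre genes were named after their values were seen. Alternatives were upper-quartile factors, no filter, DESeq2 1.42.0, limma 3.58.1 on log2(TPM + 1) and log2(TPM + 0.1), fits of fewer ages, the replicate number as a block, CPM or a log2 ratio for the shares, and each mouse left out in turn. All mice were kept, since any 2 of one age differed by at least 6.96 times the counting variance.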

Additional observations from a re-analysis of the deposited data

Results flagged for a closer look

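Each gene was examined at each age for a mouse far from the others, in 60 groups, of which chance alone gives about 1 in 20. In 4 groups the gap of the extreme mouse to its neighbour took up an unusually large part of the range in log2 CPM. At 28 months replicate 2 had the lowest Casq1 (382 CPM against 994 to 2549 in the others, gap 0.504 of the range) and the lowest Pvalb (2413 CPM against 4749 to 8134, gap 0.557). Stac3 was highest in replicate 2 of 18 months (346 CPM against 229 to 267, gap 0.633) and lowest in replicate 1 of 26 months (145 CPM against 200 to 260, gap 0.553). None of the 4 concerned Sln.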

How the results depend on the processing

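The difference of Sln between 26 and 18 months kept its direction and its call under all 8 other settings (log2 fold change 2.49 to 2.86) and without each of the 17 mice (2.69 to 2.98, FDR at most 8.99e-05). The number of the 10 genes past FDR 0.01 was 2 in place of 1 with 4 ages in the fit (Casq1 added, in both 26 against 18 and 26 against 22 months) and 0 in 26 against 22 months with 2 ages in the fit, and without single mice it ranged from 1 to 2 in 26 against 18 months and from 0 to 1 in 26 against 22 months. Of the wider list, 16 genes passed in 28 against 8 months with 2 ages in the fit. In 26 against 18 months 1 passed with no filter, 13 with 4 ages and 1 with 2 ages, and 0 to 7 without single mice. The Casq2 share between 26 and 22 months differed by 0.73 as a log2 ratio (adjusted p = 0.0534, exact permutation) and by 0.687 to 1.0 points without single mice. Small differences changed sign: Pln in 28 against 8 months (-0.0398 without replicate 3 of 28 months), Pln in 26 against 18 months (-0.00657 without replicate 7 of 18 months, -0.106 without replicate 5 of 26 months, range -0.106 to 0.210) and the Atp2a2 share in 26 against 22 months (-0.0106 without replicate 3 of 22 months, -0.0399 without replicate 6 of 26 months, range -0.0399 to 0.134). The cause of these changes was not tested, except that fewer ages or genes enter the fits concerned.

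The ages share replicate numbers without any stated pairing, and mice of the same number had a correlation of deviations above 0.1 in 4 of 8 pairs for 26 against 18 months, and in 2 of 8 pairs for 26 against 22 and for 28 against 8 months. In the same order, the median correlation was 0.0865, 0.0860 and 0.0779 for mice of the same number. For mice of other numbers it was lower in all 3 comparisons, at -0.0240, -0.00592 and 0.00396. With the number as a replicate block no call changed for the 10 genes, with 1 gene past FDR 0.01 in both main comparisons and Sln at 2.81 (FDR 3.18e-05) and 1.60 (FDR 0.00591); the wider list had 27 and 3 calls. Sln had as few as 16 counts in a young mouse, where counting error adds to its spread. Diet schedule and age cannot be told apart between mice of 8 or 18 months and those of 22 to 28 months, nor can age and time on the diet among the latter.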
